A study of Caenorhabditis elegans with 2 samples.

Results

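Long intergenic noncoding RNA (lincRNA) genes are described here for binding of DAF-16, the only FOXO family factor of Caenorhabditis elegans, near their 5′ ends. The set held all 194 genes that Ensembl release 115 annotates as lincRNA on the WBcel235 assembly (ce11), out of 46890 nuclear genes. They were taken by annotation alone. The long noncoding RNA gene tts-1 was to be left out, and it has another biotype in this release, so nothing was removed. All 194 symbols were also found in RefSeq. Although the class is named intergenic, 42 of the genes overlapped a protein-coding gene on either strand and 17 were nested in one. The set lay on all 6 nuclear chromosomes, with 43 genes on II, 38 on X, 35 on V, 29 on III, 26 on IV and 23 on I.

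The measurements were chromatin immunoprecipitation followed by sequencing (ChIP-seq) with an antibody against GFP, in 2 biological replicates of whole L4 hermaphrodites. The animals were of strain ZM7247 and were collected 54 h after starved L1 larvae had been synchronized following bleaching. They carried the deletion allele daf-16(mu86), the reduced-function insulin receptor allele daf-2(e1370) and the transgene hpSi4, whose myo-3 promoter drives GFP::daf-16a. The transgene limits the tagged protein to cells in which that body wall muscle promoter is active, while the chromatin came from whole animals. As antibody the labels list daf-16 in one field, whereas the descriptions give an antibody against GFP. Every sample shared this genotype, and no other genotype and no control library was analysed here. The genotype puts GFP before daf-16a, whereas another label describes a C-terminal GFP-FLAG tag.

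LincRNA genes give rise to long transcripts that have no recognised open reading frame and that do not overlap coding exons on their strand. A few are known to act on neighbouring genes or on other RNAs, and for most of the worm genes no function has been described. DAF-16 is kept out of the nucleus by insulin signalling, and when that signalling is low it enters the nucleus and binds the DAF-16 binding element (DBE, TGTTTAC) in the promoters of stress defence and metabolic genes. The DAF-16-associated element (DAE, CTTATCA) is linked with genes that respond in the opposite direction. The other motifs searched were a forkhead variant of the DBE (TATTTAC), the GA repeat GAGAGA and the E-box form CAGCTG.

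Bases around 9 summits are shown because they carry the contrasts described below. They are the strongest summit in a lincRNA window (linc-133), the only 2 bound members with a DBE within 100 bp of the IDR summit (linc-57 and linc-33), a weaker site with a DBE inside daf-2 (linc-143), one site each with the forkhead variant (linc-108) and the DAE (linc-117), 2 sites with runs of the GA repeat (Y54G11A.20 and linc-129) and the strongest site inside a lincRNA gene (linc-128). Each runs from 100 bp before to 100 bp after the summit, read 5′ to 3′ on the plus strand of the RefSeq copy of WBcel235. The linc-33 sequence ends before the first annotated base of trpp-9. Capitals mark every match, on either strand, to these 5 motifs, and overlapping matches run together.
linc-133 (chrII:7836738-7836938): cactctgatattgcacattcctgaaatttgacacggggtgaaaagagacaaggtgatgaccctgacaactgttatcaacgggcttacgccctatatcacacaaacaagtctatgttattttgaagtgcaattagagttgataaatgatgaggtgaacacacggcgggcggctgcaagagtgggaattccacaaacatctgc
linc-57 (chrIII:7545386-7545586): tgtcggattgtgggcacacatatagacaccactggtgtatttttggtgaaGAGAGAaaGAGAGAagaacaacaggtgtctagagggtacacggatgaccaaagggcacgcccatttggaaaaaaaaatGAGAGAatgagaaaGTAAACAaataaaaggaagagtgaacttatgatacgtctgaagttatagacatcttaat
linc-33 (chrX:11563804-11563922): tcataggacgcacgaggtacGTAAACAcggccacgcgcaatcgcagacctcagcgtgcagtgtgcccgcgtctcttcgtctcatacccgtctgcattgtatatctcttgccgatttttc
linc-143 (chrIII:3037475-3037675): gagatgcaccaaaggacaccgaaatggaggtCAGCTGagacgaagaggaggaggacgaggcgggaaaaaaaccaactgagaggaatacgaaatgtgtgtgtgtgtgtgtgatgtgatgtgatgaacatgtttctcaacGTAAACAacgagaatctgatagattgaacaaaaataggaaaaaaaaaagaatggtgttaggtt
linc-108 (chrV:15566554-15566754): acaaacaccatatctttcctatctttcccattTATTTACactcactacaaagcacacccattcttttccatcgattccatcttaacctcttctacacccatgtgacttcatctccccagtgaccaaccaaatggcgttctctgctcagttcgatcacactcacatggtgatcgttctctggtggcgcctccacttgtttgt
linc-117 (chrV:7085664-7085864): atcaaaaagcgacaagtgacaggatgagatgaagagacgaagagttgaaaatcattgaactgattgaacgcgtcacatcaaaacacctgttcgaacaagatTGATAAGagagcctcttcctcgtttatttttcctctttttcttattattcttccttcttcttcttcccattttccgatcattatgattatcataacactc
Y54G11A.20 (chrII:14311652-14311852): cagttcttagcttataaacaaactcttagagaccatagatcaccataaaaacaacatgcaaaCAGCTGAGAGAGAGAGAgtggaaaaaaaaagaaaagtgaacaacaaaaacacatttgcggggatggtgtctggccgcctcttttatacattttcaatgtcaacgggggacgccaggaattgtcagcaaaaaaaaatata
linc-129 (chrIII:10816193-10816393): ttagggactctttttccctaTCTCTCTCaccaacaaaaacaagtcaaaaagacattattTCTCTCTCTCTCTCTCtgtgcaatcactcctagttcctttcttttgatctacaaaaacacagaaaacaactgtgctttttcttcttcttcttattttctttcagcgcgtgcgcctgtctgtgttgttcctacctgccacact
linc-128 (chrV:1151410-1151610): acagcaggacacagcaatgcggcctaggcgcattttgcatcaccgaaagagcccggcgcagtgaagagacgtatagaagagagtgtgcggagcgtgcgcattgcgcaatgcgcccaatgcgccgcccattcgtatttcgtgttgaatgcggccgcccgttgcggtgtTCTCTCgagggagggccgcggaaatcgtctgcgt

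The file of each replicate lists peaks with a signal given by the authors' caller, and so does the file for the replicates pooled. The pooled list held 30000 candidates, many of them weak. A set of 2563 of these passed the authors' threshold on the irreproducible discovery rate (IDR), a measure of how well peak ranks recur between replicates. These IDR peaks had pooled signals of at least 60.5 and were exactly the 2563 strongest candidates of the pooled list. For a single peak, membership was therefore a cut on pooled signal and does not measure how well that peak recurred. The lists of replicate 1 and replicate 2 held 26922 and 25562 candidates. The signal has no stated scale, it carries no SD, and sequencing depth is unknown because the files hold no read counts. Signals were therefore used only to order peaks within one list. A gene was counted as bound when an IDR summit lay from 1000 bp upstream to 200 bp downstream of its most upstream 5′ end. Of a list of 36 body wall muscle genes, 17 were bound by this rule, against 0 of 7 intestinal, 0 of 6 neuronal, 0 of 5 hypodermal and 0 of 4 pharyngeal muscle genes and 1 of 5 germline genes. None of the listed muscle genes was the nearest protein-coding gene to a summit of the lincRNA set. With 36 listed genes out of 19973 protein-coding genes, this absence carries little information. The list does not hold sca-1, jph-1 and tnt-3, which were the nearest genes at linc-129, linc-58 and linc-130.

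Of the 194 lincRNA genes, 17 were bound, or 8.76% (Wilson 95% interval 5.54 to 13.6). Among nuclear protein-coding genes 1249 of 19973 were bound, or 6.25%, and among all nuclear genes 5.52%. The interval of the lincRNA share contains the protein-coding value, so in this setting no difference from protein-coding genes was detectable at this number of genes. The value for all genes lies just below the lower bound of that interval. In every other setting that gave both shares, the lincRNA share was also the higher one. The share was 8.76% against 6.91% when every annotated transcript start was used. It was 7.22% against 5.62% without peaks that hold a repeated 31-base word. With each summit given to the nearest 5′ end it was 6.70% against 3.835%. Without replicate 2 it was 9.79% against 6.14%, counted from peaks of replicate 1. These settings recount largely the same genes, so they are not independent of the main count. No intervals were made for these settings. A pooled candidate of any strength lay in the window of 72 lincRNA genes, or 37.1% (interval 30.6 to 44.1), compared with 32.9% of protein-coding genes and 28.2% of all nuclear genes. Here too the interval contains the protein-coding value, and it lies above the value for all genes, a class that holds 15363 piRNA genes with candidates in 15% of windows. Without peaks that hold a repeated 31-base word the direction against protein-coding genes turned, to 51 lincRNA genes (26.3%) and 28.8% of protein-coding genes. Among genes with a candidate, the summit was an IDR summit for 23.6% of lincRNA genes (interval 15.3 to 34.6) and for 19% of protein-coding genes. Candidate signals in lincRNA windows had a median of 18.4, against 23.0 in protein-coding windows, while those of bound genes had medians of 112 and 95.8 in lincRNA and protein-coding windows. Of the noncoding classes, genes annotated only as ncRNA were bound in 9.18% of cases, miRNA genes in 10.3% and antisense RNA genes in 6% (6 of 100), and these values lay within the lincRNA interval. The shares of piRNA genes, 1.33%, and pseudogenes, 0.987%, lay below it. The shares of snRNA genes, 17.1%, snoRNA genes, 28.0%, and tRNA genes, 37.7%, lay above it.

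**Figure D1:**
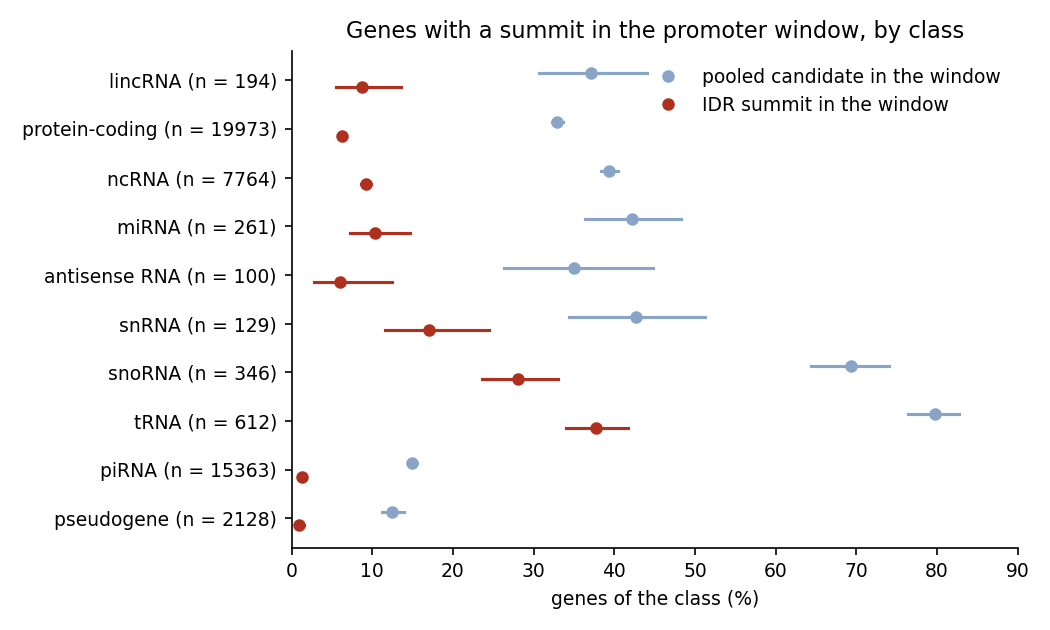
Share of nuclear genes, in percent, with an IDR summit (red) or any pooled candidate (blue) from 1000 bp upstream to 200 bp downstream of the 5′ end, by gene class, with Wilson 95% intervals as lines. LincRNA genes, at 8.76% and 37.1%, sit close to protein-coding, ncRNA and miRNA genes and below snoRNA and tRNA genes.

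The windows of the 17 bound genes held 18 distinct IDR summits, and no summit was shared by 2 lincRNA windows. Their strongest pooled signals ran from 63.6 to 322 with a median of 112, and they held ranks 86 to 2369 of the pooled list. All 17 summits had a counterpart within 100 bp in replicate 1 and in replicate 2, compared with 95% of all nuclear IDR summits. The counterparts lay at a median of 6 bp from the pooled summit in replicate 1 and 11 bp in replicate 2, and at most 54 and 74 bp away. For 14 of the 17 both replicate peaks ranked among the 2563 strongest of their own list. IDR membership was derived from these same replicates, so this recurrence is a description and not an independent check.

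The strongest summits were those of linc-133, linc-50 and linc-57. The gene linc-133 (WBGene00219606, chrII:7837826-7841485, plus strand) had a summit at position 7836838, 988 bp upstream of its 5′ end, with a pooled signal of 322 (rank 86), 157 in replicate 1 and 161 in replicate 2. This was the strongest summit of any lincRNA window, and it stood near the far edge of that window. It also lay inside linc-110 (chrII:7836075-7841128), a lincRNA gene on the other strand that overlaps linc-133, at 4290 bp from the 5′ end of linc-110. The nearest protein-coding start was that of cex-2, which encodes a calexcitin-like calcium-binding protein, at 1424 bp. The windows of the ncRNA genes T09A5.16 and T09A5.21 held the same summit. None of the 5 searched motifs occurred within 100 bp of this summit.

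The gene linc-50 (chrIV:5582041-5582262, minus strand) had a pooled signal of 226 (rank 182), with 116 in replicate 1 and 110 in replicate 2. Its summit lay 218 bp upstream of a 222 bp gene with a single exon, and 2204 bp from the start of fkh-7, a forkhead family gene, so it was closer to the noncoding gene. The same summit fell in the window of one piRNA gene, 21ur-8837. At linc-57 (chrIII:7543476-7545064, minus strand) the pooled signal was 198 (rank 255), with 95.6 in replicate 1 and 106 in replicate 2. This summit was 422 bp upstream of linc-57 and within the window of the microRNA gene mir-231, and 8854 bp from the nearest protein-coding start, that of the Hox gene lin-39. It was the most remote from any protein-coding start among the bound genes. In the sequence shown above, the DBE lies 45 bp from the summit beside 3 matches to the GA repeat.

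The next 6 genes had pooled signals from 112 to 135. At linc-78 (chrX:2243115-2243239) the pooled signal was 135, with 64.1 and 69.6 in replicates 1 and 2. Its summit lay 108 bp upstream of linc-78 and 389 bp from the start of rpl-11.2, which encodes a large subunit ribosomal protein. The windows of rpl-11.2 and of the ncRNA gene AH9.7 also held it. At linc-44 (chrII:5781921-5782113) the pooled signal was 134, with 66.1 and 71.9 in the replicates. This was the closest of the 17 to its own 5′ end, 3 bp upstream. It shared its summit with the windows of a tRNA gene (WBGene00022983), the ncRNA gene F10C1.16 and the protein-coding gene K05F1.6. At linc-88 (chrX:8753852-8754217) the pooled signal was 128.2, with 71.4 and 55.1 in the replicates. It was the single bound gene whose summit lay downstream of the 5′ end, by 33 bp and inside its own exon, and no window of another gene held that summit. The nearest protein-coding start, that of the asparagine synthetase gene asns-2, was 2944 bp away.

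Y54G11A.20 (chrII:14312560-14313131) had a pooled signal of 117, with 47.1 in replicate 1 and 73.3 in replicate 2. Its summit lay 808 bp upstream of its 5′ end and 973 bp from the start of ctl-3, one of the worm catalase genes, and both windows held it. Sequence repeated elsewhere in the genome, in words of 31 bases, made up 11.8% of the words in this peak. The other 2 genes of this strength were on chromosome I. The pooled signal was 120 at linc-91 (chrI:4699610-4702866), with 46.6 and 71.1 in the replicates, 114 bp upstream of its 5′ end and 921 bp from the start of chd-7, a chromodomain helicase gene. It was 112 at linc-141 (chrI:7372296-7372529), with 49.9 and 61.7, 835 bp upstream, with the start of sue-1 at 1830 bp and in the window of no other gene.

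The remaining 8 bound genes had pooled signals from 63.6 to 99.0, and the ranks of the replicate peaks were farthest apart for linc-108 and linc-129, which are among them. At linc-108 (chrV:15565170-15566425) the pooled signal was 99.0, with 73.3 in replicate 1 at rank 499 and 32.9 in replicate 2 at rank 2625. The summit lay 229 bp upstream of linc-108 and 740 bp from the start of acs-2, an acyl-CoA synthetase gene of fatty acid oxidation. The gene linc-129 (chrIII:10817263-10821245) was the only one with 2 IDR summits in its window. The stronger had a pooled signal of 87.04, with 65.3 in replicate 1 at rank 656 and 22.3 in replicate 2 at rank 4744, and stood 970 bp upstream. It lay in an intron of sca-1, which encodes the calcium pump of the sarcoplasmic reticulum, 385 bp from a sca-1 start. The weaker stood 29 bp upstream of linc-129 and had 70.8 in the pooled list, 33.2 in replicate 1 and 37.9 in replicate 2.

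At linc-33 (chrX:11563625-11563749) the pooled signal of 63.6 was the lowest of the 17, with 26.7 in replicate 1 at rank 3169 and 35.4 in replicate 2 at rank 2321. The summit lay 155 bp upstream of linc-33 but 19 bp from the start of trpp-9, a trafficking complex gene, and its DBE lay 77 bp from the summit. The lincRNA overlaps lev-8, an acetylcholine receptor subunit gene on the other strand. At linc-117 (chrV:7085069-7085609) the pooled signal was 85.7, with 46.9 and 39.9 in the replicates, and a DAE lay 4 bp from the summit. At linc-105 (chrIII:10718341-10719485) the pooled signal was 76.96, with 33.3 and 43.5 in the replicates, 604 bp upstream. At linc-34 (chrX:13400747-13401468) it was 74.7, with 31.0 and 43.1 in the replicates, 104 bp upstream. These last 3 each lay nearer to the noncoding 5′ end than to a protein-coding start, at 192 bp from VC5.2, 1546 bp from W09D10.4 and 511 bp from F02C12.1. On chromosome I, M04F3.7 (chrI:4768331-4769063) had a pooled signal of 92.9, with 48.5 and 47.5 in the replicates, 603 bp upstream and 626 bp from the start of rpa-2, a replication protein A gene. There, linc-84 (chrI:8865945-8866624) had one of 86.0, with 44.6 and 41.0, and lay nearer to the start of F55H12.7 (132 bp) than to its own 5′ end (264 bp). The M04F3.7 peak had the highest share of repeated 31-base words among bound genes, 32.2%.

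**Figure D2:**
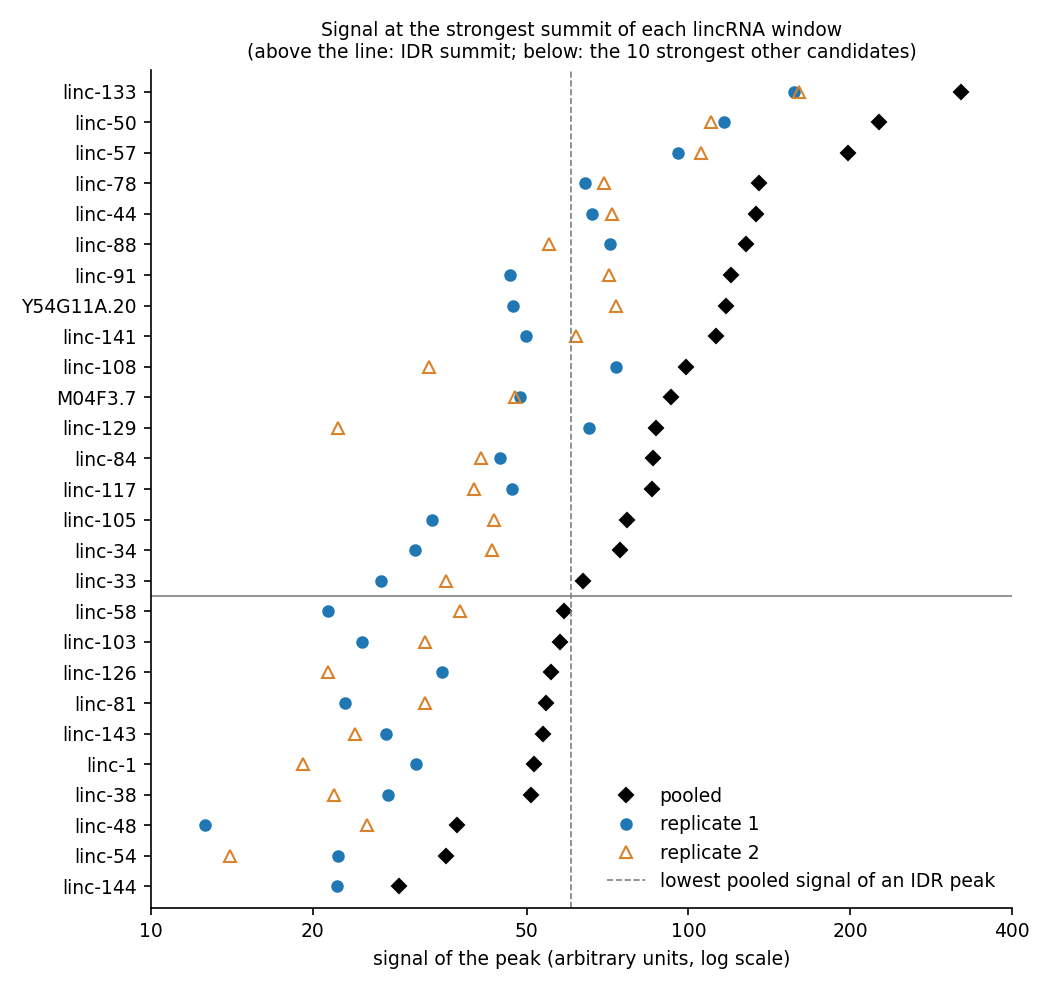
Signal of the strongest peak in each lincRNA window on a log scale, in the authors' arbitrary units, for the 17 bound genes (above the line) and the 10 strongest other candidates (below), with the pooled list as diamonds and the replicates as circles and triangles. The genes are in the order of the pooled signal, from linc-133 at 322 down to linc-144 at 28.9, the scale of the signals is not stated, so their values are not compared between lists, and the dashed line marks 60.5, the lowest signal of an IDR peak.

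The summits of bound lincRNA genes lay mostly between the noncoding gene and a protein-coding gene transcribed away from it. For 13 of the 17 the protein-coding start nearest to the lincRNA 5′ end was on the opposite strand and the strongest summit lay between those starts. This position was counted for the 17 alone, so no share of other genes stands beside it. The window reaches farther upstream than downstream, which favours it. The exceptions were linc-57 and linc-141, whose neighbours are on the same strand, linc-88, whose summit is downstream of its 5′ end, and linc-129. At linc-129 the nearest sca-1 start was 413 bp from the 5′ end, so the stronger summit lay beyond it inside sca-1, and the weaker one lay between the starts. Of the 17 summits 16 were upstream of the lincRNA 5′ end, or 94.1%, compared with 93.8% for bound protein-coding genes. The median distance from the 5′ end to the summit was 229 bp upstream for lincRNA genes and 263 bp upstream for protein-coding genes. In 14 of the 17 cases the summit was nearer to the lincRNA 5′ end than to any protein-coding start, the exceptions being linc-129, linc-84 and linc-33. The window keeps every summit within 1000 bp of the lincRNA 5′ end, which favours this outcome, and the same held for 49 of the 55 genes with a weaker candidate only. However, 10 of the 17 summits also lay in the window of a protein-coding gene, compared with 40.0% of all nuclear IDR summits, and only 4 lay in no other gene's window. These 4 include the linc-129 summit in a sca-1 intron. ChIP-seq does not tell which of the neighbouring genes a bound site acts on. None of the 17 sites can therefore be assigned to a single gene from these data, including those outside protein-coding windows.

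**Figure D3:**
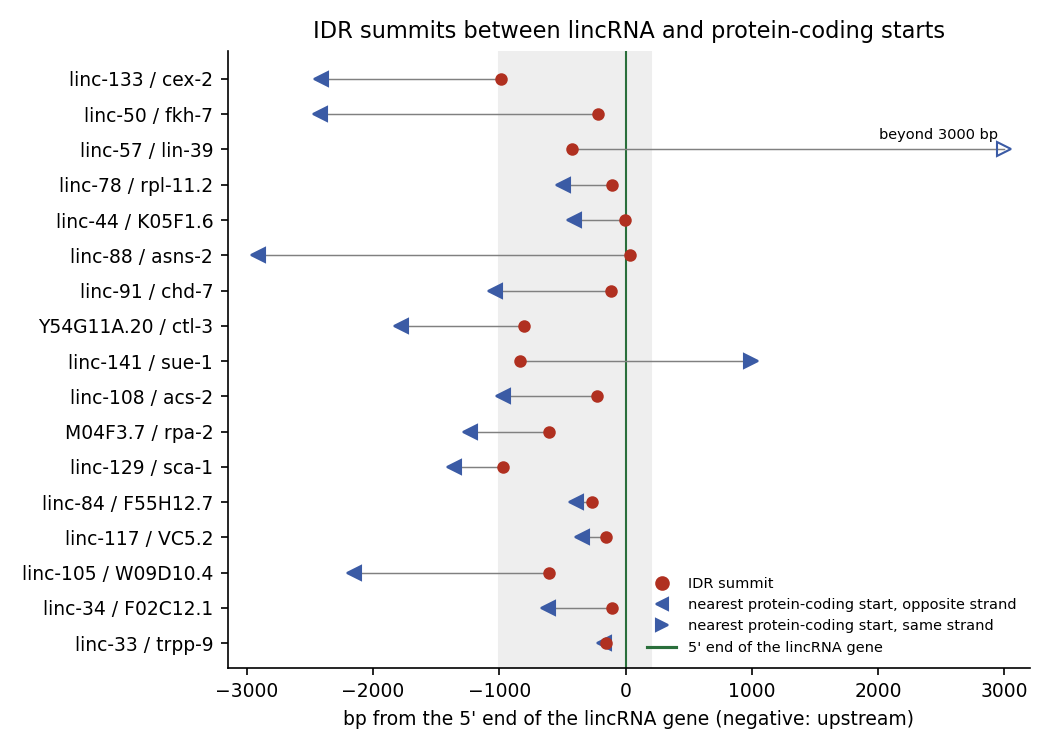
Position of the strongest IDR summit (red circle) and of the nearest protein-coding start (blue triangle pointing in its direction of transcription relative to the lincRNA gene) in bp from the 5′ end of each of the 17 bound lincRNA genes, with the counting window shaded. The start shown is the one nearest to the summit, so for linc-129 it is an internal sca-1 start. The summit lies between a leftward-pointing triangle and the green line except for linc-57, linc-88 and linc-141.

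The arrangement was then defined for every gene without use of the summits, a measure added after the positions of the 17 summits had been seen. The split into bound and other genes did use the summits. A gene was called divergent when the protein-coding start nearest to its 5′ end was on the opposite strand and upstream of it. Of the bound lincRNA genes 15 of 17, or 88.2%, were divergent, against 21 of 55 with a weaker candidate only (38.2%) and 47 of 122 with no candidate (38.5%). Protein-coding genes, counted against other protein-coding genes, showed 51.6% among bound, 36.9% among candidate-only and 32.4% among genes without a candidate. For genes annotated as ncRNA the 3 shares were 35.3%, 36.0% and 34.4%. Read the other way, 15 of the 83 divergent lincRNA genes were bound (18.1%) but 2 of the 111 others (1.80%), whereas 9.27% of divergent and 4.64% of other protein-coding genes were bound. The window can also hold a summit in the window of a divergent neighbour, and the lincRNA gene was then counted as bound. This favours divergent genes among the bound ones. Without summits that also lay in a protein-coding window, 5 of 7 bound lincRNA genes were divergent (71.4%). The number of bound lincRNA genes is small, and the measure was prompted by these same 17 genes. No interval is therefore given, and no test was made of these shares.

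**Figure D4:**
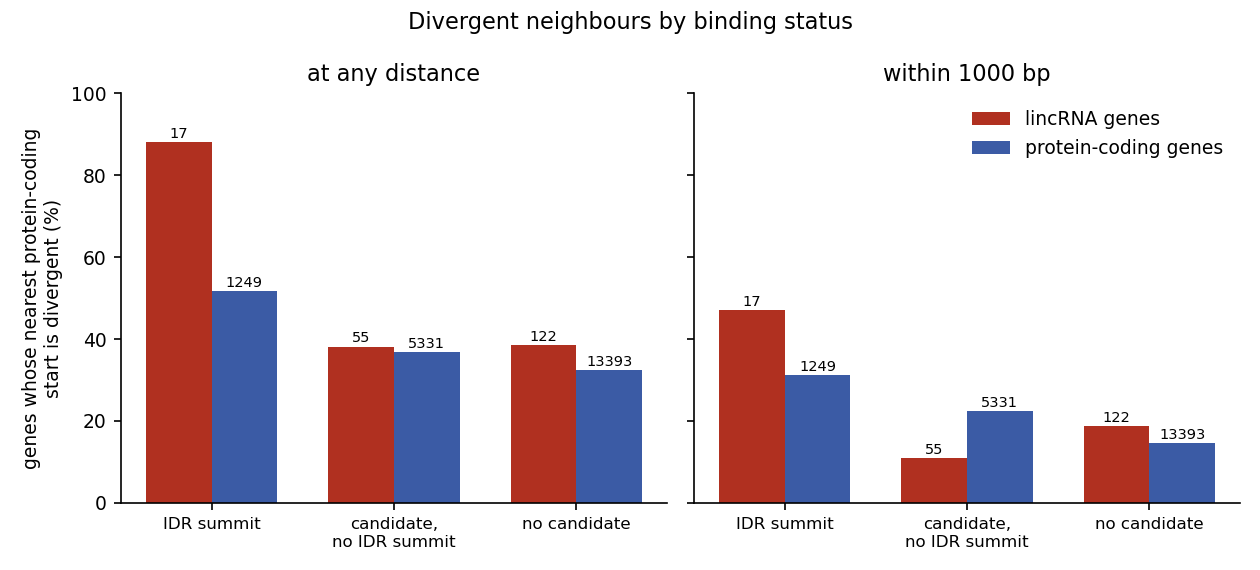
Share of genes, in percent, whose nearest protein-coding start is divergent, at any distance (left) and within 1000 bp (right), for lincRNA genes (red) and protein-coding genes (blue) by what lay in the window, with the number of genes above each bar. Bound lincRNA genes stand at 88.2% at any distance and 47.1% within 1000 bp, and the 4 bars of lincRNA genes without an IDR summit are at 38.5% or lower.

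Bound genes stood closer to protein-coding starts among lincRNA genes and in both other classes. A gene near such a start can again be counted as bound through a summit in its neighbour's window. This favours short distances among bound genes. The median distance from the 5′ end was 995 bp in bound lincRNA genes, 1688 bp in those with a weaker candidate only and 2143 bp in those without a candidate. The corresponding medians were 1374, 1837 and 2152 bp for protein-coding genes, measured to other protein-coding genes, and 1092, 1407 and 1528 bp for ncRNA genes. Among the 62 lincRNA genes within 1000 bp of a protein-coding start 9 were bound (14.5%), against 8 of the 132 farther away (6.06%), and for protein-coding genes the shares were 10.3% and 4.93%. Candidates of any strength lay in the windows of 35.5% of the near and 37.9% of the farther lincRNA genes. Within the 62, the 37 divergent genes included 8 bound ones (21.6%) and the other 25 included 1 (4.00%). The corresponding shares of protein-coding genes were 11.02% and 8.47%. Length separated the groups little, with medians of 680, 858 and 741 bp for bound, candidate-only and candidate-free lincRNA genes. A single exon was annotated for 8 of 17, 17 of 55 and 31 of 122 of them.

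Among the 55 lincRNA genes with a candidate but no IDR summit, the pooled signal had a median of 16.6 and a highest value of 58.6. Their strongest candidate recurred in both replicates for 16 of the 55 and in neither for 6, compared with 22.4% in both for all nuclear candidates outside the IDR set. The 55 are each the strongest of a window, whereas the 22.4% covers every such candidate, so these shares differ in selection. The 10 strongest accounted for 9 of those 16, and the other 45 had signals of at most 28.3. The genes just under the lowest IDR signal were linc-58 on chromosome I, with 58.6 in the pooled list and 21.3 and 37.6 in the replicates, near the junctophilin gene jph-1, and linc-103, with 57.7 and with 24.6 and 32.4. They stood beside linc-33, at 63.6, which was the weakest of those inside. In linc-126 (55.4), near the diacylglycerol kinase gene dgk-4, replicate 1 gave 34.8 and replicate 2 gave 21.3. In linc-81 (54.3) the summit coincided with the annotated 5′ end. Next came linc-1 (51.5) near the ribosomal protein gene rpl-31, linc-38 (50.9) 32 bp from the start of the lysozyme gene lys-1, linc-48 (37.1) in an exon of osm-11, linc-54 (35.3) and linc-144 (28.9), which had a counterpart in replicate 1 alone and lay in an intron of sto-5.

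One of these weaker sites lay inside daf-2, the insulin receptor gene upstream of DAF-16. The lincRNA gene linc-143 (chrIII:3035541-3037543, minus strand) is nested in daf-2 on the same strand, and its candidate summit lay 32 bp upstream of the noncoding 5′ end, in a daf-2 intron, 3271 bp from the nearest daf-2 start. The pooled signal was 53.6 (rank 3023), with 27.4 in replicate 1 and 24.0 in replicate 2, so it was present in both but below the IDR set. A DBE lay 41 bp from this summit, as printed above. Among the 55, only linc-13 also had a DBE within 100 bp of its strongest candidate summit. That candidate had a pooled signal of 16.8 and a counterpart in replicate 2 alone. The animals carry the daf-2(e1370) allele, which is a missense mutation. The gene lep-5, a noncoding RNA gene of developmental timing in the male tail, had a candidate of 13.6 that recurred in neither replicate.

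The fixed window left out IDR summits that lay close by. In 11 lincRNA genes an IDR summit lay in the gene body but not in the window, and in 5 others one lay upstream within 2000 bp. The share of other genes with such body summits is not given here. From 2000 bp upstream to 500 bp downstream, 12.4% of lincRNA genes and 8.93% of protein-coding genes had an IDR summit. The stronger body summit of linc-110 is the one counted above for linc-133. The strongest of the summits left out was in linc-128 (chrV:1150906-1153207, single exon), at 604 bp downstream of the 5′ end. It had a pooled signal of 505 (rank 35), 230 in replicate 1 and 280 in replicate 2. That exceeded every summit inside a lincRNA window, and the nearest protein-coding start, of the calmodulin gene cmd-1, was 4761 bp away. The window of linc-128 itself held only a candidate of 17.1. At linc-103 (chrX:6256778-6258976) a summit of 307 (rank 94), with 172 and 134 in the replicates, stood 1015 bp upstream, just beyond the 1000 bp limit. Summits inside K07C10.8 (145), K09A9.12 (142) and linc-164 (105) were stronger than many of the 17. The 11 genes held 12 body summits outside the window in all, of which those in linc-152 (67.0) and linc-90 (101) had a counterpart within 100 bp in replicate 2 and none in replicate 1.

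The motif shares of the lincRNA windows rest on 18 summits, so a single summit moves each of them visibly. Within 100 bp, the DBE occurred at 2 of the 18 IDR summits in lincRNA windows (11.1%) and at 8.98% of all nuclear IDR summits, against 2.45% of other candidates. The GA repeat occurred at 10 of the 18 (55.6%) and at 41.3% of all nuclear IDR summits, compared with 16.1% of other candidates. The E-box occurred at 2 of 18, at Y54G11A.20 and linc-105, in both together with the GA repeat, and at 10.5% of all nuclear IDR summits. The DAE and the forkhead variant occurred at 1 of 18 each, and at 3.78% and 4.80% of all nuclear IDR summits. At 5 of the 17 genes none of the 5 motifs was found near the strongest summit. Across whole windows, the DBE occurred in 16.5% of lincRNA genes, compared with 15.6% of ncRNA genes and 15.1% of protein-coding genes. It was found in the windows of 3 of 17 bound, 7 of 55 candidate-only and 22 of 122 candidate-free lincRNA genes.

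By chromosome, 4 of 23 lincRNA genes on chromosome I were bound, 4 of 38 on X, 3 of 43 on II, 3 of 29 on III, 2 of 35 on V and 1 of 26 on IV. On X the share was 10.5% of lincRNA genes and 8.53% of protein-coding genes, and on the autosomes it was 8.33% and 5.89%. With 1 to 4 bound lincRNA genes per chromosome, an order among chromosomes could not be read.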

How the data were processed

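ChIP-seq peak lists of 2 biological replicates of 1 group were used on the ce11 build. Per the file headers and the labels, the authors deposited a peak list for each replicate, a list for both pooled and an IDR list, and control data were named in their derivation. For the aligner, caller and IDR threshold, the sources used here give no name or value. The deposited signal is the authors' value per peak, with unstated scaling. The deposited −log10 q-value was not used for ranking. The summit position within the peak was also deposited by the authors. The ce10 lists were not used. Genes came from Ensembl release 115. The Wilson 95% intervals given for shares by gene class cover counting of genes only. Members, lists, windows and motifs were chosen with earlier results of these data known. Genes named were every bound lincRNA gene, the 10 strongest other candidates, their nearest protein-coding genes, and noncoding genes sharing a bound summit; linc-13, lep-5 and genes with IDR summits beyond the window were chosen after their values were seen. Peaks were marked as repeated when they held a 31-base word found again in the genome. With 1 group and no counts, no test over samples was possible. Summit assignment was checked on simulated data. Python 3.11.15, pandas 2.3.3, numpy 2.4.6, statsmodels 0.14.6 and matplotlib 3.10.9 were used.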

Additional observations from a re-analysis of the deposited data

How the results depend on the processing

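The count of 17 bound lincRNA genes fell to 10 (5.155%, protein-coding 3.27%) when only IDR peaks of at least the median IDR signal were kept. It fell to 7 (3.61%) when summits that also lay in a protein-coding window were left out. That setting removes genes by construction and has no protein-coding share beside it. Under the other settings the count stayed within 1.5 times of 17. It was 12 (6.19%, protein-coding 4.62%) in a window of 500 bp upstream to 100 bp downstream. In one of 2000 to 500 bp it was 24 (12.4%, protein-coding 8.93%). When each summit went to the nearest 5′ end it was 13 (6.70%, protein-coding 3.835%). Without peaks of repeated sequence it was 14 (7.22%, protein-coding 5.62%). Without those peaks the 72 genes with a candidate became 51 (26.3%), below the 28.8% of protein-coding genes. Leaving out replicate 1 or 2 gave 17 and 19 bound genes, 16 of them shared with the 17 each time. It gave 67 and 63 genes with a candidate, and 14 and 16 bound genes nearer to their own 5′ end. An IDR call needs both replicates, so with 1 left out peaks of the remaining replicate's list were counted in place of IDR peaks. These counts therefore do not show how stable an IDR call is. Without replicate 2, for example, linc-92 was counted, which had a candidate in replicate 1 and none in the pooled list. The divergent share of bound genes, added after the data were seen, ranged from 71.4% to 92.3%, and was 78.9% and 88.2% with 1 replicate left out. Motif counts of 0 to 3 summits changed with a flank of 50 or 200 bp, while the GAGAGA count was 9 and 10. No paired analysis was possible because the series holds 1 group. Depth is unknown, so a gene without a summit cannot be called unbound.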
